A study of Bos taurus with 21 samples.

Results

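The RNA levels of 6 genes of milk fat globule secretion, BTN1A1, XDH, PLIN2, MFGE8, CIDEA and CD36, were compared over 21 Holstein cows with the milk fat value, the lactation period and the share of casein RNA in each library. The genes were chosen by symbol for their part in secretion of the globule. Each was found in the count tables with a count in every cow, and they are 6 of the 12333 genes that had any count in the 21 cows. Each library held total RNA from milk somatic cells, the mixed cells that milk carries, from 1 cow sampled once, so each cow is a separate animal. The labels put 9 cows in the high milk yield group (HY) and 12 in the low group (LY), and they name no treatment. The study describes all of them as Holsteins in lactation 2 to 4 on 1 farm.

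Milk fat leaves the mammary epithelial cell by a route of its own. Triacylglycerol made at the endoplasmic reticulum gathers in cytoplasmic droplets, the droplets move to the apical surface, and each is pinched off inside a fold of the plasma membrane. Butyrophilin (BTN1A1) in that membrane and xanthine dehydrogenase (XDH) beneath it bind each other, and perilipin 2 (PLIN2, also called adipophilin) coats the droplet. CIDEA promotes fusion of droplets, MFGE8 (lactadherin) is a secreted glycoprotein that stays on the globule surface and also links dying cells to phagocytes, and CD36 is a fatty acid transporter and scavenger receptor. XDH, PLIN2 and CD36 are also made by many other cells, macrophages among them, whereas BTN1A1 is known mainly from lactating epithelium.

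The libraries held 7878557 to 28541904 counts on genes, so that even the lowest member count, 22 for BTN1A1 in HY cow 3235, was above 0. The casein share is the percent of gene counts on the 4 casein genes CSN1S1, CSN1S2, CSN2 and CSN3, which encode the main milk proteins and are not members. It ran from 0.0876% in HY cow 3235 to 44.2% in HY cow 3262, with a median of 9.27%, and 4 cows lay under 1% (HY cows 3235, 2814 and 3057 and LY cow 7643). It is measured in the same libraries as the members and shares their total. The milk fat label has positive and negative values with no unit, and it is therefore not a fat content. The HY cows lay between -10.109 and 10.928 and the LY cows between -14.377 and -2.782, and 8 of the 9 HY cows lay above every LY cow. Milk fat went with the milk yield value over all cows (Pearson r = 0.721, permutation p = 0.00026), at r = -0.153 within HY and 0.598 within LY, so the fat value and the yield group cannot be fully told apart. The HY cows had been in lactation for 41 to 268 days and the LY cows for 52 to 270 days. The casein share was not significantly related to milk fat (r = -0.312, permutation p = 0.169) or to lactation period (r = -0.0893, permutation p = 0.7). HY cows 3262 and 3280 stood apart by their TMM factors, 0.46 and 0.498, where the other cows ran from 0.749 to 1.48.

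BTN1A1 varied the most of the 6 genes. Its CPM, the read count divided by the library size after scaling by the trimmed mean of M-values (TMM), ran from 2.75 in HY cow 3235 through a median of 276.1 to 4600 in HY cow 3280, a range of 1671-fold. CIDEA ran from 4.5 in HY cow 3235 through a median of 29.2 to 475.9 in HY cow 3280, a range of 106-fold. The lowest and highest cow were the same for these genes. MFGE8 ran from 27.6 in HY cow 3235 through a median of 121.8 to 2053 in HY cow 3262, a range of 74.3-fold. XDH ran from 391.5 in HY cow 2814 through a median of 1039 to 9358 in HY cow 3280, a range of 23.9-fold. For XDH and MFGE8 a single HY cow stood well above the next one, which was at 3561 (LY cow 2893) for XDH and 752.3 (LY cow 7598) for MFGE8. PLIN2 ran from 760.6 in LY cow 3264 through a median of 1639 to 14651 in HY cow 3280. The next PLIN2 value was 2872 in HY cow 3075, so apart from cow 3280 the cows lay within a narrow band. CD36 was the steadiest, from 978.1 in LY cow 7643 through a median of 2284 to 3154 in HY cow 3064, a range of 3.22-fold. Levels are not compared between genes, since CPM is not scaled by length.

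BTN1A1, CIDEA, MFGE8 and XDH rose with the casein share, and neither PLIN2 nor CD36 passed the test. Adjusted p-values are from the quasi-likelihood test of edgeR with Benjamini-Hochberg adjustment over all 12329 genes tested, and genes were called at an adjusted p under 0.05. With this rule 4 of the 6 members were called as rising, where 10.3% of all genes were called as rising and 9.70% as falling. The median slope was 0.45 log2 units per doubling of the casein share over the members and -0.003 over all genes.

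BTN1A1 had the steepest slope. Its CPM was 2.75, 3.87, 6.51 and 5.41 in the 4 cows under 1% casein share (HY 3235, HY 2814, LY 7643 and HY 3057) and 4600 and 3389 in the 2 cows with the highest share (HY 3280 and HY 3262). It rose by 1.15 ± 0.07 log2 units (SE, n = 21) per doubling of the share, a 2.22-fold change with 95% bounds of 2.02 and 2.44 (edgeR adjusted p = 1.76e-11), and it ranked 3 of all genes by p. Pearson r was 0.98 and Spearman rho 0.96, each with the smallest p that the permutations can give (1e-05). The slope was 1.05 in the LY cows alone. The casein share is a percent of unscaled gene counts while CPM is TMM-scaled, and the TMM factors fell as the share rose (r = -0.448, permutation p = 0.0398, rho = -0.527), whose part in the slope was not tested.

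CIDEA and MFGE8 rose at similar rates. CIDEA was at 4.5, 7.59, 7.99 and 7.52 CPM in the same 4 cows and at 475.9 and 376.3 in the 2 with the highest share, and rose by 0.64 ± 0.08 log2 units per doubling (edgeR adjusted p = 4.78e-06; r = 0.831, permutation p = 3e-05; rho = 0.89). MFGE8 was at 27.6, 31.2, 50.2 and 34.1 CPM in the 4 cows and at 510.1 and 2053 in the 2, and rose by 0.57 ± 0.07 per doubling (edgeR adjusted p = 2.24e-06; r = 0.866, rho = 0.929, both with permutation p = 1e-05). Within the 9 HY cows the order of MFGE8 was exactly that of the casein share (rho = 1, exact permutation p = 5.51e-06). XDH, at 1018, 391.5, 607.9 and 523.8 CPM in the 4 cows and 9358 and 3152 in the 2, rose by 0.32 ± 0.07 per doubling (edgeR adjusted p = 0.00126; r = 0.724, permutation p = 0.00021; rho = 0.833). XDH in HY cow 3235, which had the lowest share of all, was close to the median of the 21 cows.

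**Figure D1:**
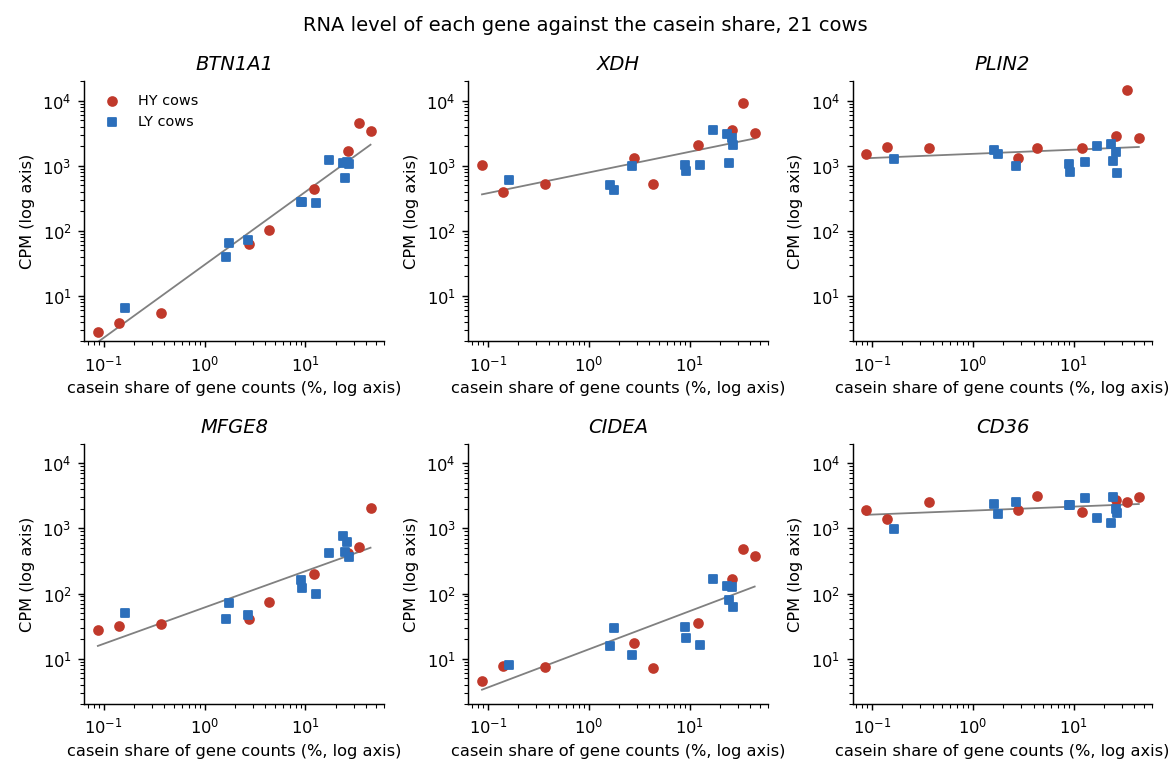
CPM of each gene (vertical log axis) against the casein share in percent of gene counts (horizontal log axis), with a point for each of 21 cows, circles for HY and squares for LY, and the ordinary regression line on the log scales. BTN1A1 climbs from 2.75 to 4600 CPM along the line, MFGE8, CIDEA and XDH climb less steeply, and PLIN2 and CD36 lie nearly flat but for PLIN2 in HY cow 3280.

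PLIN2 and CD36 had the smallest slopes of the members. PLIN2 was at 1520, 1932, 1258 and 1842 CPM in the 4 cows under 1%, and at 14651 and 2684 in the 2 cows with the highest share (HY 3280 and HY 3262). The value of HY cow 3280 was far above those of all other cows. Its slope was 0.15 ± 0.07 log2 units per doubling (edgeR adjusted p = 0.148; r = 0.204, permutation p = 0.381; rho = 0.256). Without HY cow 3280 the slope was 0.04. CD36 was at 1930, 1379, 978.1 and 2537 CPM in the 4 cows and at 2540 and 3016 in the 2 with the highest share, with a slope of 0.06 ± 0.04, or 1.04-fold per doubling with bounds of 0.985 and 1.1 (edgeR adjusted p = 0.349; r = 0.37, permutation p = 0.098; rho = 0.322). These intervals limit any change of CD36 to far less than that of BTN1A1, and they do not show that it was constant.

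The relations of the 4 genes held within both yield groups. For BTN1A1 r was 0.985 in HY and 0.978 in LY, for MFGE8 0.893 and 0.825, for CIDEA 0.875 and 0.776, and for XDH 0.793 and 0.737, and the largest of these p-values was that of XDH in HY (exact permutation p = 0.0131). Among the 17 cows above 1% r was 0.962 for BTN1A1, 0.924 for MFGE8, 0.809 for CIDEA and 0.801 for XDH. Leaving out the 2 cows with the share farthest from the median gave r = 0.972, 0.856, 0.806 and 0.763. PLIN2 had r = 0.541 in HY (exact permutation p = 0.102; rho = 0.7, exact permutation p = 0.0432) and -0.0168 in LY, and CD36 had 0.596 and 0.355. A test of the difference in slope between HY and LY called 0 of all genes in edgeR, with 797 at an unadjusted p under 0.05, and its lowest adjusted p among the members was 0.786.

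The slopes were then compared directly, as the relation of the log ratio of 2 members to the casein share in ordinary regression, for all 15 pairs. BTN1A1 rose more steeply than each of the other members (permutation p = 1e-05 for each). Per doubling, the log2 ratio of BTN1A1 to MFGE8 rose by 0.56, that to CIDEA by 0.54 and that to XDH by 0.80. XDH rose less than MFGE8 by 0.24 (permutation p = 0.00361) and less than CIDEA by 0.27 (permutation p = 0.00052). It rose more than PLIN2 by 0.25 (permutation p = 0.00058) and more than CD36 by 0.26 (permutation p = 0.0091). MFGE8 and CIDEA were not told apart (difference -0.03, permutation p = 0.639), nor were PLIN2 and CD36 (difference 0.002, permutation p = 0.975). Butyrophilin and its binding partner XDH thus had different slopes in these libraries.

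Among themselves the same 4 genes went together over the 21 cows. The highest pair was MFGE8 with CIDEA (r = 0.932), followed by BTN1A1 with MFGE8 (r = 0.913) and with CIDEA (r = 0.908), all with rho between 0.905 and 0.952. XDH had r = 0.864 with CIDEA, 0.815 with BTN1A1 and 0.798 with MFGE8. All 6 of these pairs had a permutation p of 3e-05 or less. PLIN2 had r = 0.569 with XDH (permutation p = 0.00584, rho = 0.388), which fell to 0.238 without the 2 cows farthest from the median of XDH, so that this relation rested on those cows. Its r with CIDEA was 0.537 (permutation p = 0.0068, rho = 0.394). CD36 had r from 0.068 with XDH to 0.29 with BTN1A1, and no pair with CD36 passed.

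Each gene had its own closest companions among 9628 genes with a mean of at least 10 counts, ranked by r over the 21 cows, which is a description with no test. BTN1A1 was closest to milk protein genes, with CSN1S1 at r = 0.994, GLYCAM1 at 0.993 and CSN3 at 0.992. CIDEA was closest to ACSS2 (r = 0.975), which makes acetyl-CoA from acetate, to FAM108C1 (0.97) and to SLC22A16 (0.969). MFGE8 was closest to the amino acid transporter gene SLC38A3 (r = 0.97), to CCDC85C (0.958) and to PIGR (0.957), the receptor that carries immunoglobulin A across epithelium. XDH was closest to the DNA repair gene ERCC5 (r = 0.96), to ZNF75D (0.942) and to NT5E (0.941), which makes adenosine at the cell surface. PLIN2 had lower values, with BICD2 at 0.841, UFC1 at 0.839 and SPATA24 at 0.809, and that of BICD2 was 0.602 without the 2 cows farthest from the median. CD36 was closest to SNX4 (r = 0.908), NXT2 (0.88) and STIL (0.861).

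Cell type markers also differed between libraries, and fewer cells of a type and less RNA per cell cannot be told apart in them. Of 11 mammary epithelium markers 8 rose with the casein share and 0 fell. Their summed level was 371.3 to 462565 CPM in HY and 1174 to 200990 in LY. Without the milk protein genes 8 of these markers were left, of which ELF5 and KRT19 had the highest medians (146.5 and 118.3 CPM). KRT18, CLDN4 and CDH1 were not called with the casein share. The sum over all 8, with a median of 399.5 CPM, was related to BTN1A1 at r = 0.917, to MFGE8 at 0.915, to CIDEA at 0.939 and to XDH at 0.856 (permutation p = 1e-05 for each). Its r was 0.473 with PLIN2 (permutation p = 0.0271) and 0.106 with CD36 (permutation p = 0.648). For PLIN2 rho was 0.38 (permutation p = 0.0899), and r was 0.399 without the 2 cows farthest from the median of the sum. Of 8 macrophage markers 5 fell with the casein share (C1QC, CSF1R, CD68 and CD163 among them) and 0 rose. Their sum was 1222 to 5976 CPM in HY and 1632 to 4874 in LY, and it went with XDH at r = -0.828, with BTN1A1 at -0.793, with CIDEA at -0.694, with MFGE8 at -0.671, with PLIN2 at -0.306 and with CD36 at -0.196. None of the 6 neutrophil markers or the 8 T cell markers was called with the casein share. The sum of the neutrophil markers, 1725 to 13525 CPM in HY and 3171 to 11678 in LY, went with CD36 at r = -0.565 (permutation p = 0.00781), -0.611 within HY and -0.594 within LY. The sum of the T cell markers, 96 to 747.5 CPM in HY and 79.6 to 1354 in LY, went with PLIN2 at r = -0.601 (permutation p = 0.00237), -0.603 within HY and -0.689 within LY. The sum of the B cell markers went with PLIN2 at a similar r of -0.58 (permutation p = 0.00737), -0.536 within HY and -0.58 within LY. It also went with XDH at r = -0.578 (permutation p = 0.00585), -0.787 within HY and -0.166 within LY. The part of cell makeup in the results on the members was not tested.

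Markers of B cells, platelets, endothelium and fat cells were also summed. The 4 B cell markers summed to 2.55 to 105.7 CPM over all cows and the 3 platelet markers to 10.3 to 99.5, and in each list 1 gene fell with the casein share (BLK and TUBB1). Of 6 endothelium markers, 2 fell (VWF and PECAM1) and 1 rose (TEK), with a sum of 36.5 to 334.6 CPM, and 4 of the 6 had a median under 1 CPM. The endothelium sum went with BTN1A1 at r = -0.784, with XDH at -0.725, with MFGE8 at -0.683 and with CIDEA at -0.661 (largest permutation p = 0.00114, for CIDEA). Of 4 adipocyte markers GPD1 rose and made up most of the sum of 9.49 to 420.7 CPM. That sum went with CIDEA at r = 0.957, with MFGE8 at 0.923, with XDH at 0.918 and with BTN1A1 at 0.873 (permutation p = 1e-05 for each). PLIN1 and CIDEC, the droplet proteins of fat cells, were at medians of 0.435 and 0.316 CPM. No marker with a count was at 0 in more than 10 cows. The listed markers CXCR1 (neutrophil) and LEP (adipocyte) had a row but no count in any cow, and were left out.

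**Figure D2:**
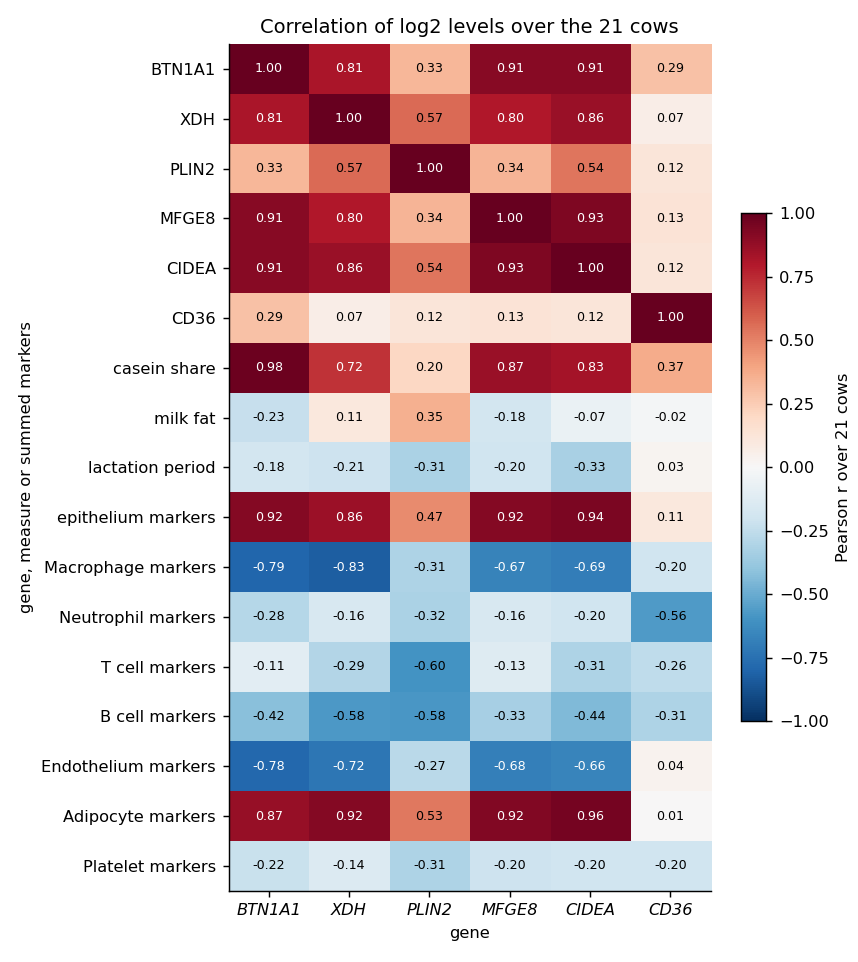
Pearson r over 21 cows of the log2 level of each gene (columns) with the other members, the 3 measures and the summed markers of each cell type (rows), coloured from -1 to 1. BTN1A1, XDH, MFGE8 and CIDEA share high values with each other, the casein share, the epithelium markers and the adipocyte markers. The same genes have negative values with the macrophage and endothelium markers (for BTN1A1 -0.79 and -0.78). PLIN2 is lowest with the T cell (-0.60) and B cell markers (-0.58), and CD36 with the neutrophil markers (-0.56).

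The wider globule and lipid genes, in lists set by function, gave the members their context. Of 8 other genes of the globule membrane and droplet coat, 4 rose with the casein share and 0 fell, with a median slope of 0.25. MUC15 and MUC1, mucins of the globule membrane, rose by 1.23 ± 0.05 and 0.83 ± 0.10 log2 units per doubling (edgeR adjusted p = 6.45e-15 and 2.1e-06), and MUC15 had the lowest p of all genes. FABP3, a fatty acid carrier, rose by 0.84 ± 0.10 (edgeR adjusted p = 9.68e-07) and RAB18, a droplet-bound GTPase, by 0.31 ± 0.05 (edgeR adjusted p = 8.7e-05). PLIN3, the relative of PLIN2 that coats nascent droplets, had a slope of -0.03 ± 0.05 (edgeR adjusted p = 0.725), and CIDEB and CIDEC, the relatives of CIDEA, were at medians of 0.72 and 0.316 CPM. Among PLIN1, PLIN2, PLIN3, CIDEA, CIDEB and CIDEC only CIDEA passed the test, and the differences between these relatives were not tested beyond the members.

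Fatty acid supply was divided. Of 6 genes of fatty acid uptake and activation 2 rose, 1 fell and 3 were not called, with a median slope of 0.09. SLC27A6, a fatty acid transporter, rose by 1.02 ± 0.10 (edgeR adjusted p = 3.86e-08) and lipoprotein lipase LPL by 0.18 ± 0.06 (edgeR adjusted p = 0.0277). SLC27A1 fell by 0.15 ± 0.05 (edgeR adjusted p = 0.0346). Of 11 genes of lipid synthesis 4 rose and 2 fell, with a median slope of 0.07. The risers were SCD (0.60 ± 0.06), which makes oleate, GPAM (0.89 ± 0.09), the first step of glycerolipid synthesis, FASN (0.55 ± 0.06) and ACACA (0.28 ± 0.05), which build fatty acids from acetyl-CoA (largest edgeR adjusted p = 0.000162, for ACACA). DGAT1, the last step of triacylglycerol synthesis, fell by 0.16 ± 0.04 (edgeR adjusted p = 0.00328) and SREBF1, a regulator of lipid genes, fell by 0.18 ± 0.04 (edgeR adjusted p = 0.00144).

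Of 5 droplet lipolysis genes MGLL fell by 0.25 ± 0.05 (edgeR adjusted p = 0.000648) and 4 were not called. Of 5 genes of prolactin and growth hormone signalling through STAT5, 3 rose and 1 fell. ELF5 rose by 1.03 ± 0.06 (edgeR adjusted p = 1.93e-11). The growth hormone receptor GHR rose by 0.77 ± 0.15 and the prolactin receptor PRLR by 0.48 ± 0.11 (edgeR adjusted p = 0.000602 and 0.00319). STAT5A fell by 0.12 ± 0.04 (edgeR adjusted p = 0.0492). Levels of PRLR and GHR were low, at medians of 0.951 and 0.764 CPM. All 3 whey protein genes tested (LALBA, PAEP and GLYCAM1) rose, with slopes between 1.02 and 1.21. The slope of BTN1A1 lay within the range of the whey genes, and those of CIDEA and MFGE8 were near those of SCD and FASN.

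**Figure D3:**
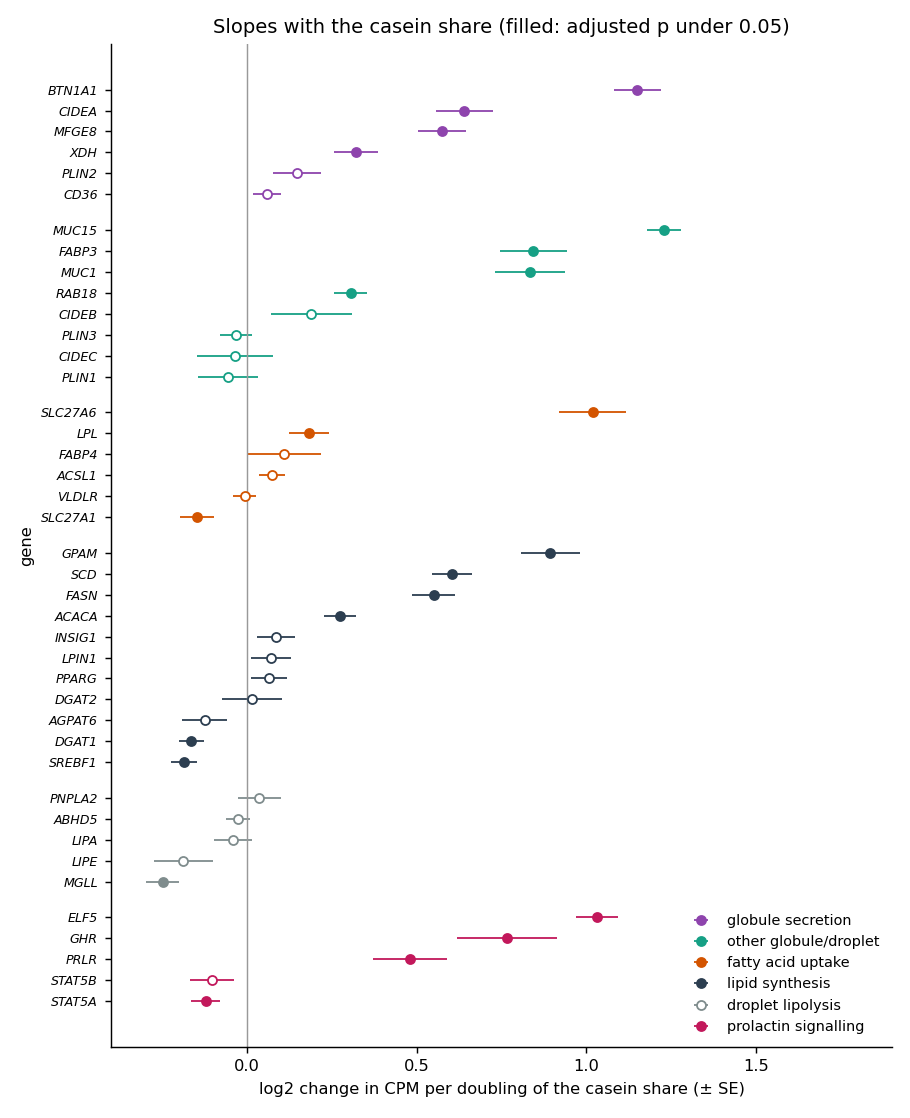
Slope of each gene in log2 units of CPM per doubling of the casein share (horizontal axis), with SE as bars over 21 cows. Shown are the 6 members and the 5 other lists of lipid genes and of prolactin and growth hormone signalling genes. Filled points passed an adjusted p of 0.05 in edgeR, and BTN1A1 at 1.15, MUC15 at 1.23, ELF5 at 1.03 and SLC27A6 at 1.02 lie farthest right.

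No member was called with milk fat, and no gene at all was. The edgeR test called 0 of 12333 genes (0%) at an adjusted p under 0.05, as did DESeq2, and 354 genes (2.87%) had an unadjusted p under 0.05. PLIN2 was the member nearest to a relation. It was at 1293 CPM in HY cow 2920, which had the highest fat value, and at 787 in LY cow 3407, which had the lowest, while the highest level, 14651, was in HY cow 3280 with a fat value of 1.679. Its slope was 0.86 ± 0.35 log2 units per 10 fat units (edgeR p = 0.0212, adjusted p = 0.999), and 0.28 without HY cow 3280. Pearson r was 0.354 (permutation p = 0.112) and rho 0.414 (permutation p = 0.0622), with r = 0.405 without the 2 cows farthest from the median of milk fat. Within HY r was -0.099 and within LY 0.0666, so the pooled relation of PLIN2 was not seen in either yield group.

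The other members gave wide intervals. BTN1A1 had a slope of 0.83 ± 0.87 per 10 fat units, CIDEA 0.84 ± 0.67, XDH 0.49 ± 0.42, MFGE8 0.23 ± 0.64 and CD36 -0.01 ± 0.18 (edgeR adjusted p = 0.999 for each). For BTN1A1 the bounds of the fold change per 10 units were 0.545 and 5.76, and for CD36 0.773 and 1.27. Ordinary regression gave slopes below 0 for BTN1A1 (-1.11), MFGE8 (-0.49) and CIDEA (-0.19), so no direction can be given for these genes. HY cow 3235, with the second highest fat value of all at 5.786, had the lowest levels of BTN1A1, MFGE8 and CIDEA. The correlations ran from r = -0.234 for BTN1A1 (permutation p = 0.307) to 0.106 for XDH (permutation p = 0.648). Within LY, CD36 had r = -0.536 (permutation p = 0.0731) and rho = -0.587 (permutation p = 0.0487), against r = -0.0592 within HY and -0.0194 over all cows. This was 1 of 18 relations of members with measures, computed in all cows and again within each group.

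Lactation period gave no call among the members either. The edgeR test called 3 of 12333 genes (0.0243%), DBX1, GRB14 and ST8SIA6, all falling, while 2756 genes (22.3%) had an unadjusted p under 0.05. CIDEA had a slope of -1.11 ± 0.45 log2 units per 100 days (edgeR p = 0.0198, adjusted p = 0.153), PLIN2 -0.62 ± 0.29 (edgeR p = 0.0394, adjusted p = 0.201), BTN1A1 -1.08 ± 0.61 (adjusted p = 0.298), MFGE8 -0.68 ± 0.40 (adjusted p = 0.312) and XDH -0.58 ± 0.32 (adjusted p = 0.288). CD36 had a slope of 0.03 ± 0.15, or 1.02-fold per 100 days with bounds of 0.83 and 1.26 (edgeR adjusted p = 0.934). The median slope was -0.65 over the members and 0.03 over all genes. Casein and marker genes had slopes in the same comparison, none of them called, with a median of -0.94 over the 4 casein genes (0 of 4 above 0), -0.68 over the mammary epithelium markers (1 of 11 above 0), 0.54 over the T cell markers (8 of 8 above 0) and 0.48 over the neutrophil markers (5 of 6 above 0). The part of cell makeup in the slopes of the members was not tested. The 2 cows with the fewest days, HY cow 2814 (41 days) and LY cow 3407 (52 days), had CIDEA at 7.59 and 20.8 CPM and BTN1A1 at 3.87 and 276.1 CPM, whereas HY cows 3262 (65 days) and 3280 (108 days) had the highest values of both genes.

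By correlation the strongest relation with lactation period was that of CIDEA (r = -0.327, permutation p = 0.147, rho = -0.205), then PLIN2 (r = -0.314, permutation p = 0.166, rho = -0.321). Without the 2 cows farthest from the median of lactation period r was -0.54 for CIDEA (permutation p = 0.0188) and -0.475 for PLIN2 (permutation p = 0.025), which are values after removal of cows and not calls. Within HY r was -0.467 for CIDEA and within LY -0.195. The remaining members had r between -0.208 and 0.0253. The share of counts that fell on no gene also went with lactation period (r = 0.461, permutation p = 0.0333), at r = 0.559 without the same 2 cows. For the log2 TMM factor r was 0.381 (permutation p = 0.0885), and 0.582 without them. For the epithelium markers without milk proteins these values were -0.186 (permutation p = 0.418) and -0.497. Milk yield had r = 0.664 with lactation period within HY and 0.788 within LY. The part of each of these in the member values was not tested. No gene of the lipid lists, the prolactin and growth hormone list or the markers was called with milk fat, lactation period or yield group.

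**Figure D4:**
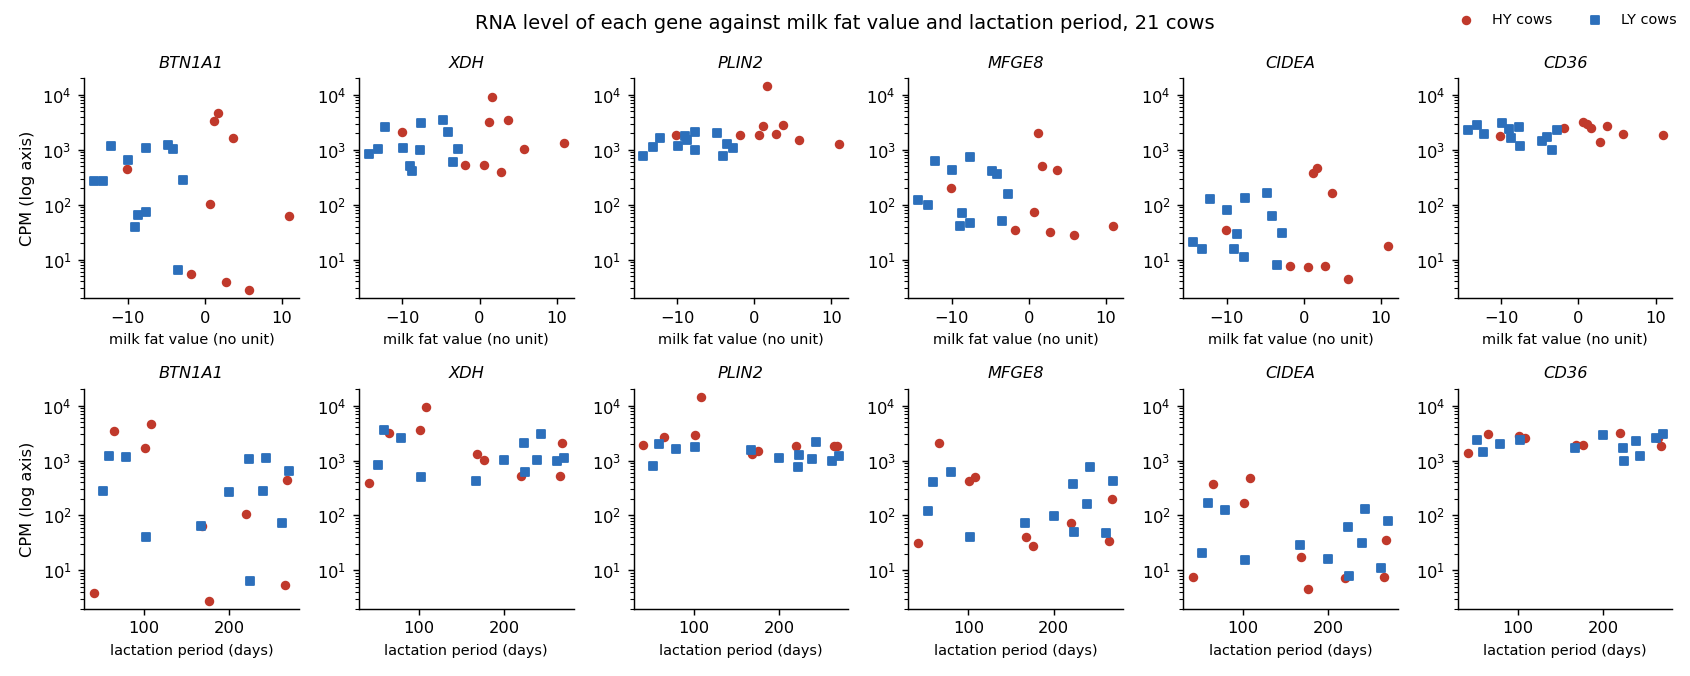
CPM of each gene (vertical log axis) against the milk fat value with no unit (upper row) and lactation period in days (lower row) for 21 cows, circles for HY and squares for LY. No gene shows a called trend, and the HY cows lie to the right of the LY cows in the upper row, except HY cow 3014 at -10.109.

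Between the yield groups, edgeR called 0 genes (0%) and DESeq2 called 1, with 580 genes (4.70%) at an unadjusted p under 0.05 in edgeR. PLIN2 had the lowest p of the members. The HY cows lay between 1293 and 14651 CPM with a median of 1868, and the LY cows between 760.6 and 2141 with a median of 1228, so 3 HY cows lay above every LY cow and the groups overlapped. The mean log2 level was higher in HY by 0.90 (exact permutation p = 0.00353, two-sided), and higher by 0.58 without HY cow 3280 (exact permutation p = 0.0128). The edgeR difference was 1.32 ± 0.39 log2 units, which ranked 22 of 12333 genes by p (p = 0.00226) but had an adjusted p of 0.999. It was 0.53 without HY cow 3280. DESeq2 on all 21 cows gave 0.50, with default settings that can replace outlying counts in groups of this size. Whether the PLIN2 count of HY cow 3280 was replaced was not checked. T cell markers, which went against PLIN2 over the cows, all had lower fitted levels in HY (8 of 8, 0 called). B cell markers also went against PLIN2 over the cows, and 3 of 4 had higher fitted levels in HY (0 called). The part of either list in the PLIN2 difference was not tested.

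The other 5 members overlapped widely between the groups. Median CPM in HY and LY was 104.3 and 277.1 for BTN1A1, 1306 and 1038 for XDH, 73.8 and 140.6 for MFGE8, 17.6 and 30.1 for CIDEA, and 2537 and 2134 for CD36. The exact permutation p of the difference in mean log2 level ran from 0.283 for CD36 to 0.837 for CIDEA. For BTN1A1 the mean log2 level was lower in HY by 0.96 (exact permutation p = 0.508), while the edgeR fold change was above 0 (1.15 ± 0.99, adjusted p = 0.999), and MFGE8 and CIDEA likewise changed sign between the tests. HY held both the lowest and the highest cow for BTN1A1, XDH, MFGE8 and CIDEA, and the SD of log2 BTN1A1 was 4.20 in HY and 2.37 in LY.

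**Figure D5:**
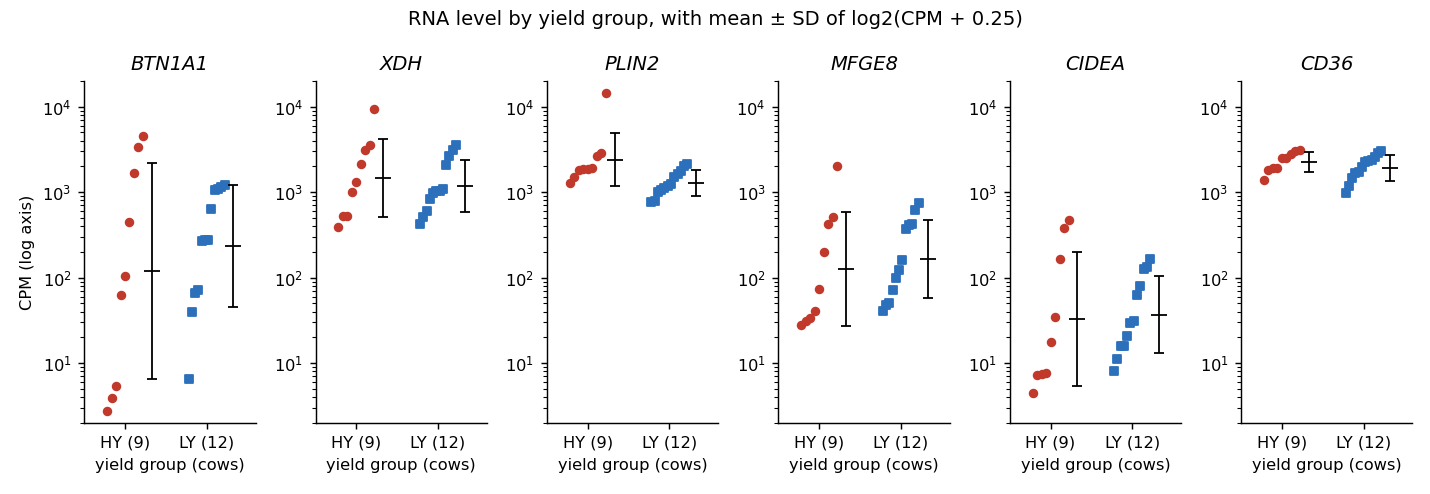
CPM of each gene on a log axis in 9 HY and 12 LY cows, with a point for each cow in rising order and bars for the mean and SD of log2(CPM + 0.25) in each group. The groups overlap for all 6 genes, and PLIN2 shows 3 HY cows above the highest LY cow at 2141 CPM.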

How the data were processed

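Total RNA was taken with TRIzol from somatic cells spun out of milk of 21 cows and sequenced on an Illumina HiSeq. Per the labels and the methods of the study, the authors trimmed reads with Trimmomatic, mapped them to bosTau7 with Bowtie2 within TopHat2, used SAMtools, and deposited HTSeq counts of reads per gene, not normalized. Versions and the strand setting are not given in the sources used here, so reads of overlapping antisense genes cannot be told apart.

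From these counts the summary rows and the row with no gene name (0.036% to 0.151% of counts) were left out, and 23 rows with names turned into dates were kept. Main tests used edgeR 4.0.16 in R 4.3.3 (TMM factors, quasi-likelihood F test, all 21 cows, no covariate) on the 12333 genes that had any count, or 12329 for the casein share. SE was derived from the F statistic, and 95% bounds assume a normal error. Correlations used log2(TMM-scaled CPM + 0.25) with two-sided permutation tests of 100000 resamples, and exact permutation tests for HY alone and for HY against LY. Scripts were tested on simulated counts. No library was a copy of another: a chi-square test of their counts gave at least 37.9 per degree of freedom in each of the 210 pairs.

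The named genes were the 6 members, the 3 genes most correlated with each and, from each list, up to 4 called genes with the lowest p or, with none called, the gene with the lowest p. PLIN3, PLIN1, CIDEB and CIDEC were named beyond this rule, as relatives of members. The members and lists were chosen with earlier results of these data known. Alternatives were DESeq2 1.42.0, RLE factors, a mean of at least 10 counts, ordinary regression with pseudocount 0.25 or 1, covariates, subsets of cows (including 16 cows in the lower set of mapping rates given by the study) and leaving out each cow. Listed symbols with no row in the count tables, or with no count in any cow, were not analysed here.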

Additional observations from a re-analysis of the deposited data

Results flagged for a closer look

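Within the 9 HY cows, the highest CPM stood far from the others in 3 of the 6 genes by Dixon's 95% limit. Chance passes this limit in about 1 of 20 groups only where the values are normally distributed. The limit was applied to CPM, which in HY ran over 23.9-fold for XDH, 11.3-fold for PLIN2 and 74.3-fold for MFGE8. The 1 in 20 rate may therefore not hold here. Whether these genes pass on the log2 scale used for the correlations was not tested. The critical values used here did not extend to 12 cows, so the LY cows were not tested. XDH reached 9358 CPM and PLIN2 reached 14651 CPM in HY cow 3280, whereas the next HY value was 3554 for XDH and 2872 for PLIN2, both in HY cow 3075. MFGE8 reached 2053 CPM in HY cow 3262, against 510.1 in HY cow 3280. These cows also had the 2 lowest TMM factors (0.498 for cow 3280 and 0.46 for cow 3262) and the 2 highest casein shares (33.6% and 44.2%), and the part of either in the high values was not tested. Without HY cow 3280 the PLIN2 slope with the casein share went from 0.15 to 0.04, and that of XDH from 0.32 to 0.28 with XDH still called. Without HY cow 3262 the MFGE8 slope went from 0.57 to 0.53, still called.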

How the results depend on the processing

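With the casein share, BTN1A1, XDH, MFGE8 and CIDEA were called in all 14 alternatives and with any of the 21 cows left out, whereas PLIN2 was called only with the share not log2 transformed (0.48 per 10% of share, edgeR adjusted p = 0.0124) and CD36 in none. The number of all genes called was 2466 and became 1208 in the 16 cows of the lower mapping set, 533 in HY alone, 1121 in LY alone and 753 in the 17 cows above 1%, an alternative chosen after seeing the data, all with fewer cows. It ran from 1655 to 2754 with each cow left out, and 4 members were called each time. With milk fat 0 genes became 1 with yield group as covariate and ran from 0 to 1 with each cow left out. With lactation period 3 genes became 865 in DESeq2, 1 with parity as covariate, and 0 with a mean of at least 10 counts, in ordinary regression with either pseudocount, in the lower mapping set, with mapping set, yield group or casein share as covariate, and in HY or LY alone; they ran from 0 to 428 with each cow left out (358 without HY cow 2814, 257 without HY cow 3057, 428 without LY cow 3407). The cause was not tested, and no member was called in any of these. Between HY and LY 0 genes became 1 in DESeq2 and ran from 0 to 0 with each cow left out. Of the 18 relations by correlation 4 had p under 0.05, and 4 to 5 with each cow left out. Over the single-gene results under each alternative, 1307 values kept their side of the threshold and 7 passed it anew. Member slopes with milk fat, none of them called, changed sign under up to 10 of the alternatives and omissions (CD36). No paired analysis was possible because the labels carry no replicate numbers and each cow was sampled once. The lowest counts, 22 for BTN1A1 and 36 for CIDEA in HY cow 3235, set the precision at the low end.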
